A study of Homo sapiens with 29 samples.

Results

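AXL Y698F was a PC9 line carrying an AXL receptor in which tyrosine Y698 was replaced by phenylalanine. It contributed 3 of the 29 libraries of the series, which were untreated (UT), exposed to 1 µM erlotinib (E), or exposed to that erlotinib dose plus AF154 at 300 ng/mL (EA), and was selected by its genotype label. These 3 libraries were compared with the 18 libraries of the other AXL-transduced lines, which were WT, Y634F, Y643F, Y726F, Y750F and Y821F. PC9 is an established lung adenocarcinoma line that depends on mutant EGFR, erlotinib is an EGFR kinase inhibitor and AF154 is an antibody that activates AXL. Treatments lasted 24 h. The 7 lines came from the same AXL knockout line by lentiviral transduction and sorting on GFP, and the sorted populations still held knockout cells. The parental line (PAR), the knockout (KO) and a kinase-dead line (KD) completed the series and are given only beside some values, and KO with EA was not analysed here.

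Every line and treatment had 1 library of polyA RNA, so a value has no replicate of its own. Changes were tested against the spread between lines, and levels against that between libraries, within and between lines. Y698F was 1 line. Differences between its 3 libraries and the other 18 are therefore differences of this line, and the mutation, the transduction and the later growth of the line cannot be told apart. Values are in TPM, a length-normalised share of the transcripts of a library, summed per gene, and differences and changes are on the log2(TPM + 1) scale, which understates those of low genes. TPM keeps no read depth, so the depth of each library is unknown. Between 8800 and 9461 genes reached 10 TPM in a library of the series, and mitochondrial transcripts took 11.36% to 17.39% of the TPM.

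AXL is a receptor tyrosine kinase of the TAM family, named for TYRO3, AXL and MERTK, and GAS6 is its main ligand. On activation the receptor phosphorylates tyrosines in its own intracellular part, and adaptor proteins bind some of them. Y698 lies in the activation loop of the kinase domain, the segment whose phosphorylation opens the active site in many receptor kinases. Y726 is also in the kinase domain, and Y821 in the tail is a docking site. In EGFR-mutant lung cancer AXL is known for carrying survival signals when EGFR is blocked, and cells under erlotinib leave the cell cycle and lower the transcripts of DNA replication and mitosis.

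The reference sequence around 3 of the mutated codons is shown to place the change that defines the line beside a site in the same exon and the docking site. Each is 27 bases of the coding strand of transcript AXL-201 on GRCh38 (plus strand, annotation of GENCODE release 29), with the tyrosine codon in capitals. The Y698 window ends in another tyrosine codon, which the Y698F construct was not labelled as changing. The codon used for phenylalanine in the constructs was not given in the sources used here.
Y698, chr19:41256495-41256521, exon 18: tccaagaagatcTACaatggggactac
Y726, chr19:41256579-41256605, exon 18: gctgaccgtgtcTACaccagcaagagc
Y821, chr19:41259668-41259694, exon 20: gacgaaatcctcTATgtcaacatggat

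AXL itself (ENSG00000167601, chr19:41219203-41261766, plus strand) was present in Y698F at a level inside the range of the other transduced lines. Its summed TPM in Y698F was 335 untreated, 666 with E and 591 with EA. The 6 lines ran from 217 to 428 with a median of 304 untreated, from 408 to 852 with a median of 542 with E, and from 338 to 849 with a median of 487 with EA. Y698F thus had rank 3 of 7 from the top in each treatment, and its libraries overlapped those of the others. The level difference was 0.14 ± 0.23 (SE) with an adjusted p of 1 in limma. AXL in PAR was 351, 245 and 232 TPM, and in KO 92.4 and 79.3 TPM, so knockout cells still gave AXL reads. The transcript AXL-201 was at 60.5, 44.9 and 50.8 TPM in Y698F against 47.6 to 57.2, 43.9 to 48.5 and 40.6 to 50.1 TPM. It was thus above all 6 lines untreated and with EA and inside their range with E. KO also had AXL-201, at 41.8 TPM untreated and 39.6 TPM with E. AXL-202, at 127.2, 191.2 and 166 TPM in Y698F, was above all 6 lines untreated (at most 123.9 TPM) and inside their range with E and EA. The shorter AXL-205, at 53.7, 195 and 162 TPM, was near 0 in KO (0.182 and 0.192 TPM) and inside the range of the 6 lines in every treatment. Reads of the transgene and of the endogenous gene were not separated.

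**Figure D1:**
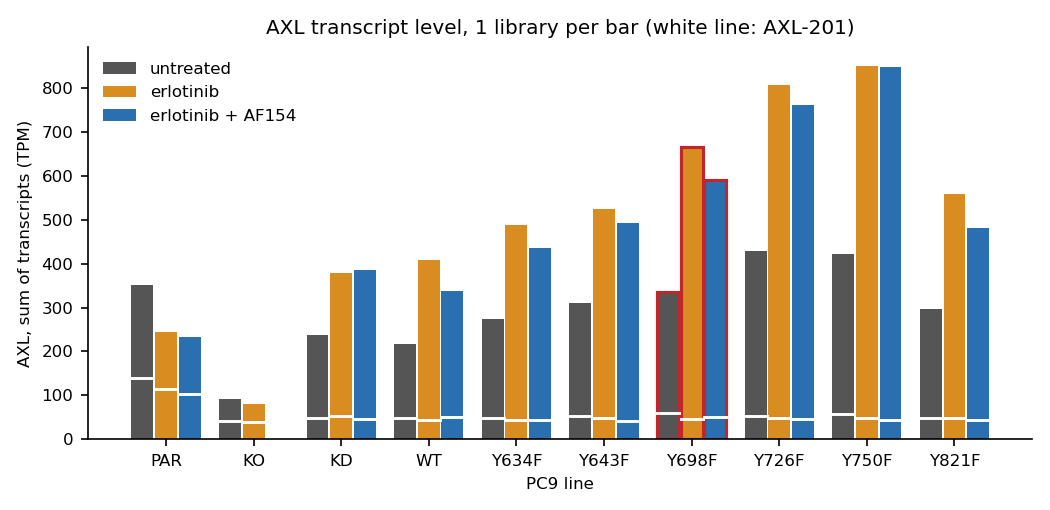
AXL level (TPM, summed over transcripts) in each of the 10 lines, with 1 bar per library coloured by treatment and a white line at the level of AXL-201; the Y698F bars are outlined in red. Y698F stood at 335, 666 and 591 TPM, rank 3 of the 7 lines transduced with WT or Y-to-F AXL in each treatment.

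No gene of 9241 tested differed between Y698F and the 6 lines at an adjusted p under 0.05 (limma with treatment as a block and line as a random block, 0% called, smallest adjusted p of 1). At an unadjusted p under 0.05 there were 149 genes, 108 higher and 41 lower in Y698F. As a share of the 9241 genes this was under the 0.05 that such a cutoff passes when no gene differs. The median SE of a gene's difference was 0.10. The level differences were small, with a 5th percentile of -0.14, a median of 0.02 and a 95th percentile of 0.17.

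Set against the other 6 in the same way, Y698F was the line whose genes lay closest to the rest. Its median size of difference was 0.05, and that of the others was 0.06 in Y726F and Y750F, 0.07 in WT, Y634F and Y821F and 0.09 in Y643F. Y698F had 26 genes that differed by over 0.5, as had Y726F, and the others had 35 to 72. In Y698F 47 genes lay beyond all 6 lines on the same side in each of the 3 treatments, which was 0.509% of the genes tested. The other lines had between 57 (Y726F) and 335 (Y643F) such genes. The order of the lines was not tested.

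**Figure D2:**
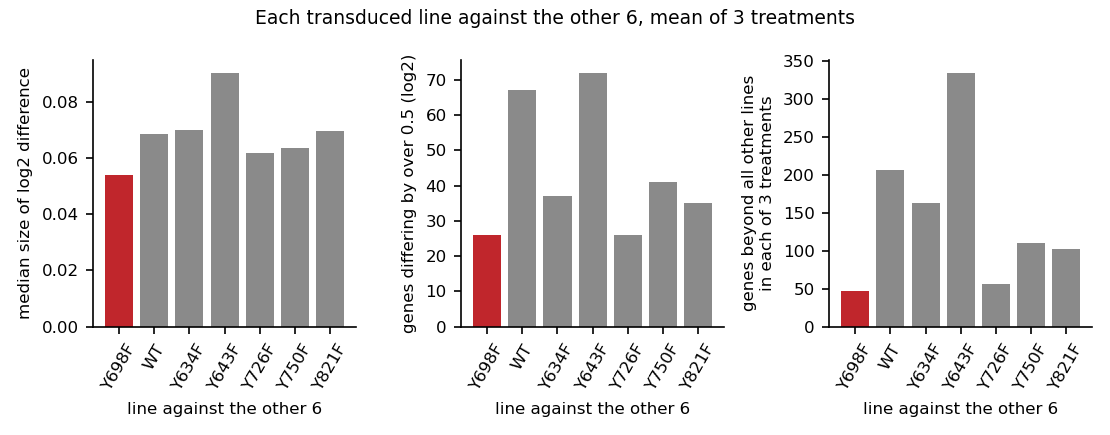
Each of the 7 transduced lines against the other 6, averaged over 3 treatments: median size of the log2 difference, number of genes differing by over 0.5 and number of genes beyond all other lines in each treatment. Y698F (red) had the lowest median, 0.05, and the fewest genes beyond all others, 47.

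Of the 47 genes, 37 were above all 6 lines (0.4% of genes tested) and 10 below (0.108%). They are described here as values without a call, and were named after their values were seen. Each of the 7 lines had such genes and Y698F had the fewest, so their number does not set this line apart. How many would arise without a line difference was not tested. Among the 37 were genes of mitosis and genome maintenance. AURKA, the kinase that matures centrosomes and builds the spindle, was at 91.7, 34.8 and 44 TPM in UT, E and EA, against 72.5 to 82.3, 29.1 to 34.6 and 32.4 to 39.2 TPM in the 6 lines. Its difference was 0.21 ± 0.07 (SE), with an unadjusted p of 0.0038. FANCA, a subunit of the Fanconi anaemia core complex in DNA crosslink repair, was at 56.2, 17.4 and 21.1 TPM against medians of 46.7, 12.1 and 13.7 TPM and highest values of 52.1, 17 and 15.6 TPM. Its coding transcript FANCA-202, 5451 bases long, was inside the range untreated, at 11.09 TPM against 9.862 to 14.29 TPM. With E and EA it was narrowly above, at 4.254 and 5.014 TPM against at most 4.029 and 5.009 TPM. Entries above the range untreated included FANCA-222, annotated to nonsense-mediated decay (9.362 TPM against at most 6.957 TPM), and the coding FANCA-213 (3.189 TPM against at most 2.604 TPM). The FANCA difference was 0.43 ± 0.12 with an unadjusted p of 0.002. The condensin II subunit NCAPG2 (difference 0.16) and the spindle protein DLGAP5 (0.14) were also above all 6 lines, DLGAP5 narrowly, at 66.2, 31.1 and 38 TPM against highest values of 65.7, 30.8 and 36.2 TPM.

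Further members of the 37 came from other functions. PSEN2, a catalytic subunit of gamma-secretase, was at 21.6, 22.7 and 22 TPM against 15 to 17.4, 14.8 to 19.4 and 16.5 to 20.2 TPM, a difference of 0.35 ± 0.09. SARS2, the mitochondrial seryl-tRNA synthetase, and SLC25A22, a mitochondrial glutamate carrier, differed by 0.33 ± 0.10 and 0.32 ± 0.10. P3H2, a collagen prolyl 3-hydroxylase, was at 20.1, 28.3 and 30.6 TPM against medians of 15.4, 23.7 and 22.7 TPM. The RNA-binding proteins HNRNPM (0.15), HNRNPD (0.12) and HNRNPK (0.10) and the HSP90 co-chaperone STIP1 (0.10) were higher by small amounts, with HNRNPM at 294, 235 and 255 TPM against highest values of 286, 225 and 229 TPM. ENG, a co-receptor for TGF-beta ligands, was at 59, 34.2 and 34.9 TPM against highest values of 54.8, 33.4 and 33.6 TPM.

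The 10 genes below all 6 lines included AHR, the ligand-activated aryl hydrocarbon receptor. AHR was at 11.7, 14.5 and 14.8 TPM in Y698F, against 13.3 to 15.8, 16.1 to 18.5 and 14.9 to 31.5 TPM, a difference of -0.32 ± 0.14. PIM1, a serine/threonine kinase induced by STAT signalling, was at 16, 23.5 and 24.2 TPM against lowest values of 17.2, 25.2 and 25.3 TPM, a difference of -0.19 ± 0.07. RRAS2, a RAS-related GTPase, was at 23.8 TPM untreated against 24.8 to 35.4 TPM, and with EA it was level with the lowest line at 34.6 TPM. SYT17 and the dystrobrevin gene DTNB were lower by 0.32 and 0.31. Of the remaining members, MRPL43, a mitochondrial ribosomal protein, differed by -0.15 ± 0.05 at 53.3, 49.7 and 49.3 TPM against lowest values of 55.3, 53.1 and 51.5 TPM.

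**Figure D3:**
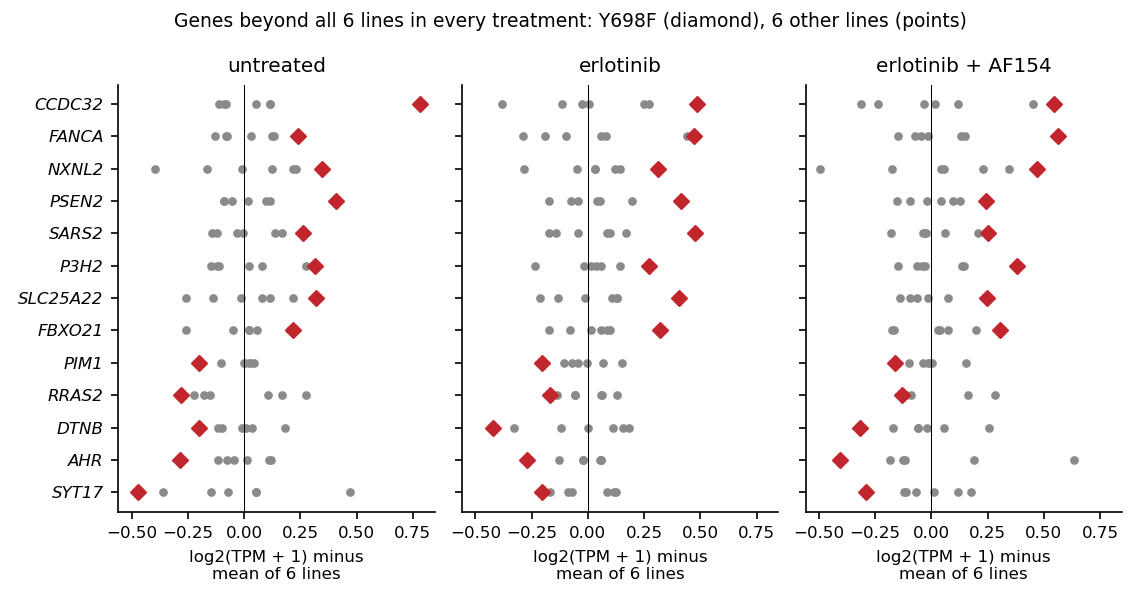
Level of 13 genes in Y698F (red diamonds) and in the 6 other lines (grey points) in each treatment, as log2(TPM + 1) minus the mean of the 6 lines. The genes are 8 above and 5 below all 6 lines in every treatment, and CCDC32 has the largest difference, 0.60.

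Among those of the 47 genes that have a symbol, the largest difference lay in a short transcript with no coding annotation. The pair of genes among the 47 without a symbol differed by 0.63 and -0.72. CCDC32 (ENSG00000128891, chr15:40528683-40565057, minus strand), an endocytosis factor, was at 36, 34.6 and 36.9 TPM, against 18.9 to 22.3, 18.5 to 29.7 and 19.9 to 34.5 TPM, a difference of 0.60 ± 0.15 with an unadjusted p of 0.000477. Its processed transcript CCDC32-211, 343 bases long, was at 15.6, 11.2 and 21.8 TPM in Y698F against at most 6.62, 8.53 and 10.9 TPM, while the coding transcripts CCDC32-201 and CCDC32-202 were inside the range of the 6 lines in each treatment. PSEN2-208, a protein-coding entry 627 bases long, was above all 6 lines, at 4.74, 6.67 and 5.47 TPM against at most 1.49, 2.67 and 4.67 TPM. The longer coding transcript PSEN2-202 was below all 6 lines untreated (3.507 TPM against 4.224 to 9.094 TPM) and with E (4.27 TPM against 5.341 to 7.958 TPM). With EA PSEN2-202 was above them, at 6.335 TPM against at most 6.083 TPM. The full-length AHR-201 was inside the range of the 6 lines in every treatment. The differences of CCDC32 and AHR are thus not seen in these coding transcripts.

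With erlotinib the gene lists moved in Y698F by amounts that were mostly inside the range of the 6 lines. The median size of a gene's E minus UT change was 0.38 in Y698F and 0.37 to 0.40 in the others, and 1278 genes had a change over 1 in size against 1093 to 1367. No gene's change differed between Y698F and the 6 lines at an adjusted p under 0.05 (limma on within-line changes, 0% called, smallest adjusted p of 0.446). At an unadjusted p under 0.05 there were 327 genes, 136 with a higher and 191 with a lower change. This share of the 9241 genes was also under 0.05. With 1 line against 6, a permutation of the lines could not give a p below 1/7, and none was run.

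Of the 21 gene lists, 17 had a mean E minus UT change inside the range of the 6 lines. The 25 DNA replication genes that passed the filter (of 26) were all lower with E in Y698F and in each of the 6 lines. Their mean went from 6.17 untreated to 4.21 with E in Y698F, a change of -1.96, against -2.17 to -1.84. RRM1 was the 1 gene of them (4%) with a change above all 6 lines, where 9.46% of all genes tested had one. POLE2 and GINS2 (8%) were below, where 13.1% of all genes were. In bulk RNA fewer cycling cells and less of these transcripts per cell cannot be told apart. The 24 mitosis genes that passed (of 25) had a mean change of -1.17 against -1.27 to -1.15, and 11 ERK targets and feedback genes one of -1.77 against -1.92 to -1.61. Both lists were thus lower with E in Y698F by as much as in the lines with other receptors. YAP/TAZ targets (0.40, against 0.29 to 0.55), TGF-beta pathway genes (0.64, against 0.55 to 0.66) and p53 targets with CDK inhibitors (0.65, against 0.51 to 0.77) were higher with E by amounts inside the range.

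The 4 lists outside the range were so by small margins. The EMT and mesenchymal list had a mean change of 0.74 in Y698F against 0.57 to 0.72, and none of its 13 members that passed was outside on its own. TAM receptors and ligands, where 3 of 5 members passed, had 0.49 against 0.13 to 0.48. Of these, TYRO3 was above and GAS6 below all 6 lines (33.3% each, where 9.46% and 13.1% of all genes tested were). NRF2 and antioxidant genes had 0.263 against 0.206 to 0.261. The interferon-stimulated genes had the smallest change of the 7 lines, 0.303 against 0.312 to 0.558. In this last list 4 of the 11 members that passed were below all 6 lines, 36.4%, where 13.1% of all genes tested were below. They were MX1 (-0.30, against -0.24 to 0.61), the interferon regulatory factors IRF7 (0.39, against 0.58 to 0.92) and IRF9 (0.85, against 1.10 to 1.92), and OAS3 (-1.09, against -1.07 to -0.59), a sensor of double-stranded RNA.

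The single genes at the extremes of the erlotinib comparison included a pair with roles in DNA replication. UHRF1 (ENSG00000276043, chr19:4903080-4962154, plus strand), which brings the maintenance DNA methyltransferase to replicated DNA, was at 11.6, 13 and 10.7 TPM in Y698F. The 6 lines had 19.3 to 41.5 TPM untreated, 5.59 to 9.93 TPM with E and 4.87 to 16.5 TPM with EA, so Y698F was lowest untreated and highest with E. Its E minus UT change was 0.14 against -2.25 to -1.52, with an unadjusted p of 6.24e-05 and an adjusted p of 0.446 in limma. The untreated difference lay largely in transcript UHRF1-207, at 0.896 TPM in Y698F and 1.83 to 19.8 TPM in the 6 lines.

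POLE2 (ENSG00000100479, chr14:49643555-49688422, minus strand), a subunit of DNA polymerase epsilon, differed in the opposite direction. It was at 34.2 TPM untreated, above the 19.9 to 31.2 TPM of the 6 lines, and at 6.58 TPM with E, below their 9.76 to 21.4 TPM. The change was -2.22 against -0.95 to -0.46, with an unadjusted p of 9.64e-05 and an adjusted p of 0.446 in limma. With E, 2 short processed transcripts were below the range. POLE2-209 was listed at 0 TPM in Y698F against 1.11 to 12.1 TPM and POLE2-207 at 2.5 TPM against 3.44 to 8 TPM, while the protein-coding POLE2-201 was at 1.72 TPM, inside the 0.349 to 2.03 TPM of the 6 lines. CPSF4, a subunit of the mRNA cleavage and polyadenylation factor, had a change of -0.91 against -0.27 to -0.14, and ST20 one of -0.17 against 0.36 to 0.64. IKBKB, the kinase that releases NF-kB, went from 10.7 to 23.2 TPM, a change of 1.05 against 0.09 to 0.49. RPS27, a ribosomal protein gene whose reads can be shared with near-identical copies and is uncertain for that reason, had 2.27 against -0.17 to 0.96. In all of these the Y698F library with E or the untreated library, or both, lay beyond every other line.

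AF154 added to erlotinib gave changes in Y698F of the usual size for these lines. The median size of a gene's EA minus E change was 0.11, against 0.10 to 0.18, and 284 genes had a change over 0.5 in size against 254 to 750, the highest in Y821F. No gene's change differed from that of the 6 lines at an adjusted p under 0.05 (limma, 0% called, smallest adjusted p of 0.675). At an unadjusted p under 0.05 there were 454 genes, 232 with a higher and 222 with a lower change. This share of the 9241 genes was again under 0.05. Of the 21 lists, 17 were inside the range of the 6 lines, and the 4 outside were DNA replication, cholesterol and fatty acid synthesis, glycolysis and hypoxia, and the BCL2 family, each above it. How many lists would fall outside without a line difference was not tested.

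In this comparison the DNA replication list had the largest difference in mean between Y698F and the 6 lines. With EA the mean of the 25 genes was 4.69 in Y698F, above the 4.19 to 4.56 of the 6 lines, while with E it was 4.21, at their median of 4.21. The change of the list mean was 0.48 in Y698F, against 0.12 in WT, 0.33 in Y634F, 0.36 in Y643F, 0.30 in Y726F, 0.33 in Y750F and 0.25 in Y821F. It was 0.01 in KD and 0.89 in PAR. Of the 25 genes, 24 were higher with EA than with E in Y698F, against 19 to 24 in the other lines, and 11 (44%) had a change above all 6 lines, where 15.6% of all genes tested had. MCM4 and CDC45 (8%) were below all 6, where 13.8% of all genes were. The difference between the list's median levels, which can fall on different genes in the EA and E libraries, was 0.41 in Y698F, rank 3 of the 7 lines, with the others between -0.12 and 0.58. Taken gene by gene, the median difference between the change in Y698F and the mean change of the 6 lines was 0.24 over the 25 genes and 0.01 over all genes tested.

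The members with larger changes were spread over the steps of replication. PCNA, the sliding clamp of DNA polymerases, was at 328 TPM untreated, 79 TPM with E and 118 TPM with EA. The 6 lines had 315 to 359, 67.2 to 89.3 and 73.9 to 111 TPM, so the EA library alone was above the range. FEN1, the nuclease that trims Okazaki fragment flaps, was at 121, 25.2 and 40.5 TPM against medians of 120, 26.3 and 31.8 TPM. Its EA minus E change was 0.66 against 0.04 to 0.41, the only one of the list with an unadjusted p under 0.05 (0.0452, with an adjusted p of 0.976 in limma). That was 1 of the 25 genes, where 454 of all 9241 genes tested had an unadjusted p under 0.05.

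MCM10, needed to activate the replicative helicase, had the highest change of the list, 0.98 against -0.40 to 0.63. Its TPM was 31, 4.65 and 10.1 in Y698F, with 2.55 to 5.12 TPM in the 6 lines with EA. A short transcript of 469 bases, MCM10-204, was at 4.42 TPM in the Y698F library with EA and at most 0.478 TPM in the 6 lines. The longer coding MCM10-202 was inside the range with EA (2.489 TPM against 1.612 to 2.935 TPM), and MCM10-206 was above it (2.774 TPM against at most 2.413 TPM). From E to EA in Y698F, MCM10-204 went from 0.865 to 4.42 TPM, MCM10-202 from 1.173 to 2.489 TPM and MCM10-206 from 2.61 to 2.774 TPM. The rise was thus largest in the short transcript. The helicase subunit MCM2 (0.56, against 0.02 to 0.39), the transcription factor E2F1 (0.68, against -0.03 to 0.64) and thymidine kinase TK1 (0.47, against -0.22 to 0.42) were above the range. RRM2, the small subunit of ribonucleotide reductase, was inside it at 0.89 against -0.19 to 0.97, with 57.1 TPM with EA against 28.7 to 53.8 TPM. The mitochondrial share of TPM was 12.95% in the Y698F library with EA, the lowest of the 7 lines (others 13.31% to 17.39%). After each library was centred on its median, the change of the list was 0.47 against 0.09 to 0.37.

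**Figure D4:**
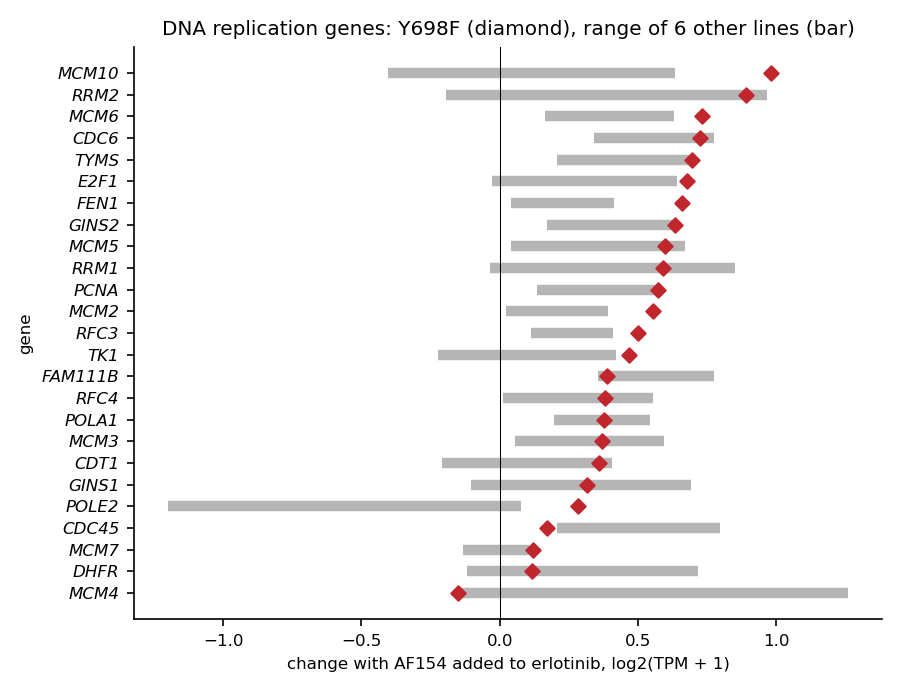
Change of each of 25 DNA replication genes between erlotinib with AF154 and erlotinib alone, on the log2(TPM + 1) scale, in Y698F (red diamonds) and as the range of the 6 other lines (grey bars). In 11 genes Y698F lies to the right of the bar and in 2, MCM4 and CDC45, to the left.

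Mitosis genes were high in the Y698F library with EA, and the change of their mean lay inside the range. The mean was 5.91 with EA against 5.71 to 5.84, and all 24 were higher with EA than with E, with a list change of 0.32 against 0.18 to 0.36. Of the 24, CCNA2, AURKA, PLK1, CDC20 and UBE2C (20.8%) had a change above all 6 lines, where 15.6% of all genes tested had, and ANLN (4.17%) had one below. PLK1, a kinase of mitotic entry, was at 150, 56.4 and 79.8 TPM, and with EA the 6 lines had 58.4 to 70.6 TPM. Its EA minus E change was 0.50 against -0.03 to 0.35. BUB1B, a spindle checkpoint kinase, was at 51.7, 21.6 and 27.2 TPM against 42.7 to 52, 15.9 to 18.9 and 18.8 to 24.6 TPM. Over the 3 treatments the median level difference was 0.09 for mitosis and 0.11 for DNA replication genes. That of all genes tested was 0.02. These differences average the treatments. Untreated and with E, both list means were inside the range of the 6 lines, and with EA both were above it. For DNA replication the untreated mean was 6.175 against 6.1 to 6.203. AURKA and DLGAP5, 2 of the 24 mitosis genes, and 0 of the 25 DNA replication genes were beyond all 6 lines in every treatment, where 0.509% of all genes tested were.

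The cholesterol and fatty acid list had a mean change of 0.16 between E and EA in Y698F, against 0.00 to 0.11 in the 6 lines and 0.41 in PAR. Of its 22 members that passed, 6 were above all 6 lines, 27.3%, against 15.6% of all genes. Below all 6 lines were 2 members, 9.09%, against 13.8% of all genes. FASN, fatty acid synthase, was at 85.8 TPM with E, below the 91.5 to 135 TPM of the 6 lines, and at 121 TPM with EA, above their 83.9 to 116 TPM. LSS, which makes lanosterol, had a change of 0.48 against -0.41 to 0.29.

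The other lists outside the range had smaller changes. Glycolysis and hypoxia genes had a mean change of 0.06 against -0.05 to 0.04, and 8 of the 21 that passed (38.1%) were above all 6 lines, where 15.6% of all genes tested were. Among them were the enolase ENO1 (0.33, against 0.07 to 0.27) and TPI1 (0.20, against -0.01 to 0.13). Below all 6 lines were 3 members (14.3%, where 13.8% of all genes were), the enolase ENO2 (-0.59, against -0.46 to 0.28), PFKFB3 (-0.50, against -0.30 to 0.09) and EGLN3 (-0.15, against -0.10 to 0.36). The BCL2 family mean differed between EA and E by 0.02 in Y698F and by -0.25 to -0.01 in the 6 lines. Its sign was thus opposite to that of every other line, but the margin to WT at -0.01 was small. By the list's median level the change was inside the range. Of the 14 members, 7 were higher with EA than with E in Y698F, against 1 to 9 in the 6 lines. In this list 5 of 14 members (35.7%) were above the range, where 15.6% of all genes were. They were the pro-apoptotic BAD (0.16, against -0.34 to 0.09), BAX (0.23, against -0.29 to 0.13) and BID (0.44, against -0.62 to 0.33), the pro-survival BCL2L2 (0.0594, against -0.891 to 0.056), and BCL2L13 (0.25, against -0.14 to 0.13). The pro-survival MCL1 and the pro-apoptotic BMF (14.3%) were below it.

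Lists of ERK and YAP/TAZ targets, which lie downstream of the receptor, were inside the range of the 6 lines with AF154. The ERK list had a mean change of 0.20, second of 7 after Y643F at 0.24, with the others between -0.09 and 0.07. ETV5, an ERK-induced transcription factor, was at 33.6, 2.82 and 6.86 TPM, and its change of 1.04 was above the -0.63 to 0.64 of the 6 lines, while FOSL1 was inside at 0.32 against 0.03 to 0.62. YAP/TAZ targets had a mean change of -0.01 against -0.07 to 0.08. CCN1 (95.9, 238 and 226 TPM) and ANKRD1 (27.2, 21.2 and 18.6 TPM), both direct YAP/TAZ targets, were inside the range in every comparison, and CCN2 had an E minus UT change of 0.35 against 0.01 to 0.23 and an EA minus E change of -0.21 against -0.10 to 0.08. The E library of CCN2, at 16 TPM, was inside the range of 12.1 to 16.1 TPM.

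The receptors, ligands and adaptors of the AXL and YAP pathways were inside the range of the 6 lines or near it. EGFR was at 184, 132 and 133 TPM with medians of 184, 131 and 137 TPM in the 6 lines. MET, a receptor kinase known from bypass resistance, was at 135, 208 and 204 TPM, and PTK2, focal adhesion kinase, at 82.5, 71.6 and 74.5 TPM, each inside the range in every treatment. NEDD9, a scaffold that binds focal adhesion kinase, was at 52, 244 and 219 TPM, an erlotinib change of 2.21 against 1.98 to 2.48. YAP1 (102, 95.6 and 97.6 TPM) was above the 88.8 to 100 TPM of the 6 lines untreated and WWTR1, which encodes TAZ, was inside in every treatment. GAS6 was at 35.3, 61.5 and 59.5 TPM with an erlotinib change of 0.78 against 0.81 to 0.93. TYRO3 was at 16.8 TPM untreated, below 17.9 to 20.8 TPM, and inside the range with E and EA. The ligand PROS1 and the receptor MERTK did not pass the filter, at 1.05 to 3.33 and 1.66 to 2.5 TPM in Y698F.

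The members of the remaining lists with the largest level differences were mostly low or overlapping ones. VEGFA, a hypoxia-induced angiogenic factor, was at 60.2, 17.1 and 23.8 TPM, below all 6 lines untreated (60.8 to 71.6 TPM) and with E (20 to 34.5 TPM) and inside with EA, a level difference of -0.24 ± 0.12. PTPN14, a phosphatase that restrains YAP and is itself a target, was at 9.15 TPM untreated against 10.2 to 14.7 TPM and inside the range with E and EA, a difference of -0.27 ± 0.12. IL6, an inflammatory cytokine, was at 2.19, 13.8 and 15.1 TPM with 2.51 to 6.38 TPM in the untreated 6 lines. These 3 genes were thus lower in Y698F in the untreated library.

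On the high side, BCL2L11, which encodes the pro-apoptotic BIM, was at 19.2 TPM untreated, above the 12 to 15.2 TPM of the 6 lines, and inside the range with E (45.7 TPM) and EA (40 TPM). TLN1, which links integrins to actin, was at 57.9, 77.1 and 72.6 TPM, above all 6 lines untreated (48.6 to 56.4 TPM) and with E (62.8 to 70.6 TPM). SMAD7, an inhibitor of TGF-beta signalling, was at 12.4 TPM untreated against 8.13 to 11.2 TPM, and the receptor kinase EPHB4 at 42.1 TPM against 33.4 to 40.5 TPM. TAP2, a peptide transporter of antigen presentation, was at 39.4 TPM with E against 21.4 to 34 TPM. The level differences of these 5 genes lay between 0.11 and 0.23, and none had an adjusted p under 0.05 in limma. The receptor ERBB3 (74.3 TPM with E against 75.6 to 101 TPM) and the aldo-keto reductase AKR1C3 (915 TPM with EA against 948 to 1310 TPM), whose close relatives make it uncertain, were below the range in that treatment. ITGA2, OCLN, CEACAM6, SNAI2, ATF3, PHGDH and BBC3 were inside the range in every treatment.

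The genes at the extremes of the AF154 comparison were outside the replication list. MAP4K3, a kinase of amino acid signalling to mTORC1, was at 26 TPM with E, above 16.9 to 23.3 TPM, and at 14.6 TPM with EA, below 15.8 to 22.2 TPM, a change of -0.79 against -0.10 to 0.17. ARHGEF4, a guanine nucleotide exchange factor, changed by 0.64 against -0.30 to 0.04. The read-through genes RBM14-RBM4 (1.01, against -0.60 to 0.11) and BCL2L2-PABPN1 (-1.38, against 0.48 to 1.86), FAM156A (0.69, against -0.41 to 0.09) and SMN1 (-0.49, against 0.08 to 0.28) share sequence with other genes and are uncertain. The smallest unadjusted p among these genes was 0.00016, for MAP4K3.

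The change from untreated to EA uses no E library, but shares its EA library with EA minus E. No gene differed at an adjusted p under 0.05 (limma, 0% called, smallest adjusted p of 0.717), with 386 at an unadjusted p under 0.05, 164 higher and 222 lower. These 386 were a share of the 9241 genes under 0.05. The DNA replication mean had a change of -1.48 in Y698F against -1.92 to -1.54, and 11 of 25 members (44%) were above all 6 lines, where 13.4% of all genes were. Since the EA library with its list mean of 4.69 enters both changes, this is not a separate result. The difference between the list's median levels was -1.02, rank 3 of 7, with the others between -1.31 and -0.85. Gene by gene, the median difference from the mean change of the 6 lines was 0.17 over the list and -0.01 over all genes. Glycolysis and hypoxia genes had a mean change of -0.24 against -0.46 to -0.34, with 10 of 21 members (47.6%) above all 6 lines. The untreated level of this list was 7.145 in Y698F, below the 7.165 to 7.250 of the 6 lines.

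The EMT and mesenchymal list had a mean change of 0.76 from untreated to EA, against 0.54 to 0.68. By the list's median level it was inside the range. Of its 13 members that passed, 3 (23.1%) were above all 6 lines and 2 (15.4%) below, where 13.4% and 14.7% of all genes tested were. S100A4 was among those above, exceeding the mean change of the 6 lines by 1.34. Antigen presentation genes had a mean change of 0.66 against 0.46 to 0.63. The ERK list, at -1.572, was just above the highest of the 6 lines, -1.573. S100A4, a calcium-binding protein of migrating cells, was at 11.3, 7.85 and 16.2 TPM, with 15.7 to 29.2, 6.53 to 13.1 and 8.24 to 15.6 TPM in the 6 lines. It was thus the lowest of the 7 lines untreated and the highest with EA, with a change of 0.49 against -1.33 to -0.39 and an unadjusted p of 0.000795.

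Other extremes of this comparison were KRI1, a ribosome biogenesis factor (2.71, against -1.39 to 0.25, with an untreated level of 1.81 TPM) and PCNT, a scaffold of the centrosome (0.12, where no other line was above -0.64). On the low side were CCNT2, a cyclin of the elongation factor P-TEFb (-0.39, against 0.24 to 0.72), TANGO2 (-0.28, against 0.31 to 0.68) and C2orf92 (-0.49, against 0.29 to 0.77).

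**Figure D5:**
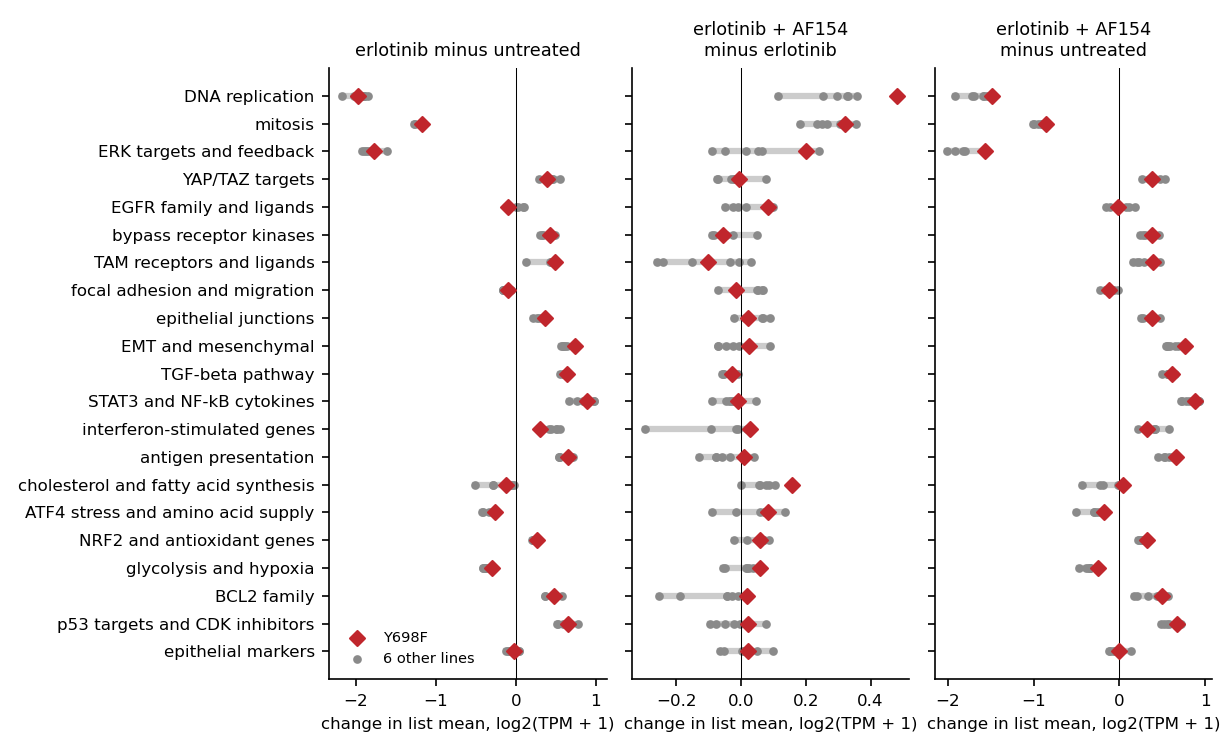
Mean change of 21 gene lists in Y698F (red diamonds) and in each of the 6 other lines (grey points, range as a bar), for erlotinib against untreated, AF154 added to erlotinib, and both against untreated, on the log2(TPM + 1) scale. In the middle panel DNA replication lies at 0.48, to the right of all 6 lines.

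The copy of a gene to which reads were assigned could move a value in 1 library. LSM2, a subunit of the U6 RNA-binding LSM ring in the HLA region, was listed at 4.14, 33 and 0.0579 TPM on the primary assembly in Y698F, against 35.3 to 69.7, 17.6 to 55.3 and 20.8 to 48.5 TPM. Its copies on alternate haplotype sequences held 69.7, 15.3 and 58.3 TPM in Y698F. The sum, used here, was 73.9, 48.3 and 58.4 TPM against 73.1 to 91.3, 48.6 to 65.8 and 44.7 to 57.0 TPM.

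The epithelial label held in every Y698F library, where EPCAM, CDH1 and the keratins KRT8, KRT18 and KRT19 summed to 4680 to 5180 TPM (4250 to 5700 TPM in the 6 lines). Lung lineage markers summed to only 1.03 to 3.91 TPM (0.776 to 5.4 TPM), with NKX2-1 under 1 TPM in all 21 libraries. Fibroblast markers summed to 26.5 to 66 TPM (23.8 to 73 TPM), mostly COL1A1, with COL1A2, COL3A1 and LUM under 1 TPM. Immune markers summed to 29.9 to 57.9 TPM (28.1 to 68.7 TPM), mostly CD68, with CD3E under 1 TPM. Endothelial markers summed to 3.32 to 8.56 TPM (2.05 to 10.2 TPM, VWF under 1) and neuroendocrine markers to 0.826 to 1.2 TPM (0.521 to 1.72 TPM, SYP under 1). Each sum in Y698F was inside the range of the 6 lines.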

How the data were processed

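PolyA RNA of 29 PC9 libraries was sequenced, 1 per line and treatment. The authors deposited TPM per transcript for all libraries in 1 table. The submitters' processing notes name kallisto and GRCh38, and the annotation release and strand handling are not given in the sources used here. TPM keeps no depth, so counting error is unknown. The precision is that of the spread between lines for changes, and within and between lines for levels. The members, gene lists and named genes were chosen with earlier results of these data known.

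Of 188753 transcripts, 169797 were matched to GENCODE release 29 on the primary assembly and 15326 on alternate sequences were joined to the gene of the same symbol, a choice made after seeing the data. The 3630 others were not used. This gave 35580 genes, of which 9241 passed a filter on the mean over all 29 libraries (10 TPM or more). The sums held 98.92% to 99.18% of the TPM of a library.

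Levels were compared on log2(TPM + 1) with limma 3.58.1 in R 4.3.3 over 21 libraries, with treatment as a fixed block and line as a random block (correlation 0.163). Changes were within-line differences, 1 line against 6, since the libraries of a line are the same cells. The changes share libraries: E enters the first 2 with opposite sign, and EA minus UT shares UT with the first and EA with the second. P-values were adjusted by Benjamini-Hochberg with a threshold of 0.05, and the scripts were tested on simulated data. The 3 libraries of Y698F are 1 line. The p-values of levels measure the spread over the 21 libraries, within and between lines, and not that between replicate lines of a genotype.

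List values are means over the members that passed the filter, set beside the range of the 6 lines with no test. The genes named were from the AXL and YAP pathway genes, the 2 members of each list with the largest level difference, and, since none passed the threshold, the 3 highest and 3 lowest by moderated t in each comparison of changes with a change outside the range of the 6 lines. Other genes were named after their values were seen. Some genes that the rule selects are not reported here. Alternatives were other pseudocounts, filters, scalings, blocks and weights, AXL level as a covariate, the KD line added, each line left out and the primary assembly alone. KO, KD and PAR entered no test of the main comparison. Python 3.11.15, numpy 2.4.6, pandas 2.3.3 and matplotlib 3.10.9 were used.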

Additional observations from a re-analysis of the deposited data

Results flagged for a closer look

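In the DNA replication, ERK and other lists, 126 list values were checked over the 7 transduced lines for a line far from the rest (Dixon's ratio of gap to range above its 95% critical value, which chance passes in about 1 of 20 groups), and 6 were found, none of them in Y698F. These were the ERK list level with E in Y634F (4.41), the EGFR family list level untreated in Y750F (5.738), the epithelial junction list level with EA in Y643F (6.456), the TAM list change with erlotinib in Y643F (0.132), the interferon list change with AF154 in Y821F (-0.2989) and the ATF4 list change from untreated to EA in Y821F (-0.5033). The BCL2 family list had a change with AF154 of 0.01927 in Y698F, opposite in sign to each of the 6 lines (-0.253 to -0.0112), and this difference was not tested. By the list's median level the BCL2 family change was inside the range of the 6 lines.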

How the results depend on the processing

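None of the 4 comparisons called a gene under other pseudocounts, scalings, stricter filters, KD added, a test against 0.5, the primary assembly alone, or, for levels, line means, no line block, weights or AXL as a covariate. Leaving out each of the 6 lines in turn and, for levels, also the libraries of each treatment in turn, gave 0 calls in every case, with 118 to 259 genes at an unadjusted p under 0.05 for levels, 309 to 453 for E minus UT, 410 to 525 for EA minus E and 302 to 551 for EA minus UT. Weaker filters did add calls. With a mean of 1 TPM, 3 genes passed for E minus UT (TRBJ2-4, BOLA2P3 and MTND4P24). With any gene above 0 in 1 library, 2 passed for levels (FOXD4L4 and RHCE), 319 for E minus UT, 320 for EA minus E and 281 for EA minus UT, of which 307, 306 and 276 had a mean under 1 TPM.

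The excess of the DNA replication mean in Y698F over the 6 lines was 0.20 for EA minus E and 0.19 for EA minus UT. It was 0.17 to 0.22 and 0.14 to 0.22 when 1 line was left out, and 0.16 and 0.10 by the list's median level. Of the 13 list changes outside the range of the 6 lines, cholesterol and fatty acid synthesis between EA and E stayed outside under all 6 settings, and 12 came inside under at least 1. Of 3523 values of single genes and lists recomputed, 3379 kept their sign. No replicate of a line was available, and depth sets no limit that can be stated from TPM. The labels give no replicate numbers, and libraries were paired by line, as a random block for levels and as changes within lines.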
